A study of Rattus norvegicus with 40 samples.

Results

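Hedgehog signalling was described here through 8 genes: the ligands Shh and Ihh, the receptor Ptch1, the signal transducer Smo, the ligand-binding inhibitor Hhip, and the transcription factors Gli1, Gli2 and Gli3. A member was any probe set that the platform annotation names for 1 of these symbols and no other gene, and 7 of the 31042 probe sets tested met this. They cover 6 of the 8 genes, with a pair of probe sets for Smo. Ptch1 and Gli3 had no probe set named for them alone in that annotation, so their levels were not analysed here.

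The arrays held total RNA of whole lung and whole intestine of Wistar rat embryos taken by caesarean section from timed matings at gestational day 20 (E20) or 16 (E16). There were 10 arrays each of lung E20, lung E16, intestine E20 and intestine E16, 40 in all. All embryos were of this single strain, and the labels give no treatment or altered allele in any group. RNA was labelled from 2 µg for lung and 1 µg for intestine, so organ and RNA amount cannot be told apart. Frozen tissue came from several siblings per the labels, and they do not settle whether an array holds 1 embryo or a pool. Where all arrays of an age are littermates, age cannot be told apart from litter. The p-values below reflect the scatter among these arrays alone, part of which may be technical.

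In lung and gut, Hedgehog ligands are made mainly by the epithelium and act mainly on the mesenchyme around it. Without ligand, Ptch1 holds Smo inactive. Ligand binding to Ptch1 frees Smo, and the Gli factors then pass the signal to target genes, with Gli2 the main activator, Gli3 mainly a repressor and Gli1 both an activator and a target. Hhip binds the ligands at the cell surface and is itself induced by the pathway, as Ptch1 is. In mice the pathway is needed for branching of the airways and for the muscle layers and folds of the gut.

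Promoters are shown for the genes whose levels changed most and for the receptor, because Gli factors recognise the letters GACCACCCA. RefSeq promoter windows (GRCr8, 250 bases before to 50 after the gene start, 300 bases, given 5′ to 3′) were found for 5 of the 8 genes. Shh, Ihh and Gli1 were not matched. The windows are Hhip at chr19:44767788-44768087 (+ strand), Smo at chr4:59310834-59311133 (+ strand) and Ptch1 at chr17:1555321-1555620 (+ strand). Capitals mark a match to the 9 letters or their reverse complement.
Hhip: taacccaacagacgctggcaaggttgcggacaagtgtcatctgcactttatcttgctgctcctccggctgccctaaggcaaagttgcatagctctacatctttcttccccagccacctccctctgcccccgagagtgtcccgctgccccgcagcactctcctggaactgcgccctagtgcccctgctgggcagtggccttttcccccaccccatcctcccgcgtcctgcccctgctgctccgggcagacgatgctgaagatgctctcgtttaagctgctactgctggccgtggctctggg
Smo: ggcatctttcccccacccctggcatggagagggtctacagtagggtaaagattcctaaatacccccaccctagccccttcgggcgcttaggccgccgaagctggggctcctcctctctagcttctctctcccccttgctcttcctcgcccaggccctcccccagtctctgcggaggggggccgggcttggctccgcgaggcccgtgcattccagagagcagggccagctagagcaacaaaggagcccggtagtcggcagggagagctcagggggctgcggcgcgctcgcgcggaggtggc
Ptch1: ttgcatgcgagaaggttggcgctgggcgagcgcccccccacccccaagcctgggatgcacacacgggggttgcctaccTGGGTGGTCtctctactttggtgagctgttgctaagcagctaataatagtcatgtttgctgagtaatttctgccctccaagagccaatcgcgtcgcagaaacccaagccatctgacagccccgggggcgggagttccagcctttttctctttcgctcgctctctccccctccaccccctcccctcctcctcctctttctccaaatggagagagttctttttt

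Both strands were searched for GACCACCCA and for CCACCCA, the 7-letter core within it. The Ptch1 window holds TGGGTGGTC, the reverse complement of the 9 letters, at bases 79 to 87, which starts at position -172 from the gene start. The 9 letters are in 129 of 33469 rat promoter windows of this length, a share of 0.385%. The Gli3 window (chr17:54405149-54405448, - strand) holds the core alone, as TGGGTGG at bases 175 to 181, and 8.87% of all windows hold the core. These letters are not in the windows of Hhip, Smo or Gli2 (chr13:32716369-32716668, - strand). A match is a description of the letters and not a measured binding site.

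Values are log2 of the deposited intensities, and a level is comparable between arrays for 1 probe set but not between probe sets. A difference was called, and is said here to rise or fall, where the limma adjusted p over all 31042 probe sets was under 0.05 and its size at least 2-fold, a log2 difference of at least 1. In whole organs, fewer cells of a type and less RNA per cell cannot be told apart. Array medians lay between 220 and 264 intensity units, and the median of all log2 values was 7.89. No detection calls were used, so it is not known how far dim values stand above background. The organ labels matched their markers: the mean of 8 lung identity genes had group medians of 13.08 in lung E20, 8.38 in lung E16, 7.14 in intestine E20 and 6.38 in intestine E16. The mean of 7 intestine identity genes was 6.36, 6.51, 11.56 and 7.51 in the same groups, so intestine markers stood under the median of all log2 values at E16. Earlier processing of these arrays found more liver, pancreas or mesothelium transcripts on 7 of them (lung E20 replicates 1, 6 and 8, intestine E20 replicate 9, intestine E16 replicates 6, 8 and 9). A further 4 lung E16 arrays (replicates 2, 5, 7 and 9) stood 1.34 to 4.66 log2 units above their group's median in cardiac muscle genes. Without either set, the numbers of member genes called were the same in all 5 comparisons. The counts by adjusted p alone and of groups without overlap were not recomputed.

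Between the ages, members changed in both directions. Smo fell in both organs, Gli1 fell in lung, and Hhip rose in lung, while no ligand passed the 2-fold call in either organ. In lung, 1 of 6 genes rose and 2 fell, against 5.24% of all probe sets called higher and 3.79% called lower. In intestine, 0 of 6 genes rose and 1 fell, against 6.25% and 5.55% of all probe sets. With 1 probe set per gene, 1016 of 14217 genes were called higher and 658 lower in lung, and 1250 and 890 in intestine. No arrays overlapped between ages for 6 of 7 member probe sets in lung (2 higher, 4 lower) and 5 in intestine (1 higher, 4 lower), against 10.9% of all probe sets higher and 11.8% lower in lung, and 11.9% and 16.3% in intestine. By the adjusted p alone, whatever the fold, 3 of the 6 genes were higher and 3 lower in lung by their brightest sets. In intestine 1 was higher and 3 were lower. That rule called 27.2% of all probe sets higher and 29.5% lower in lung, and 23.0% and 39.6% in intestine. The median change over the 6 genes was -0.0011 in lung and -0.30 in intestine, where the median over all probe sets was -0.025 and -0.10.

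**Figure D1:**
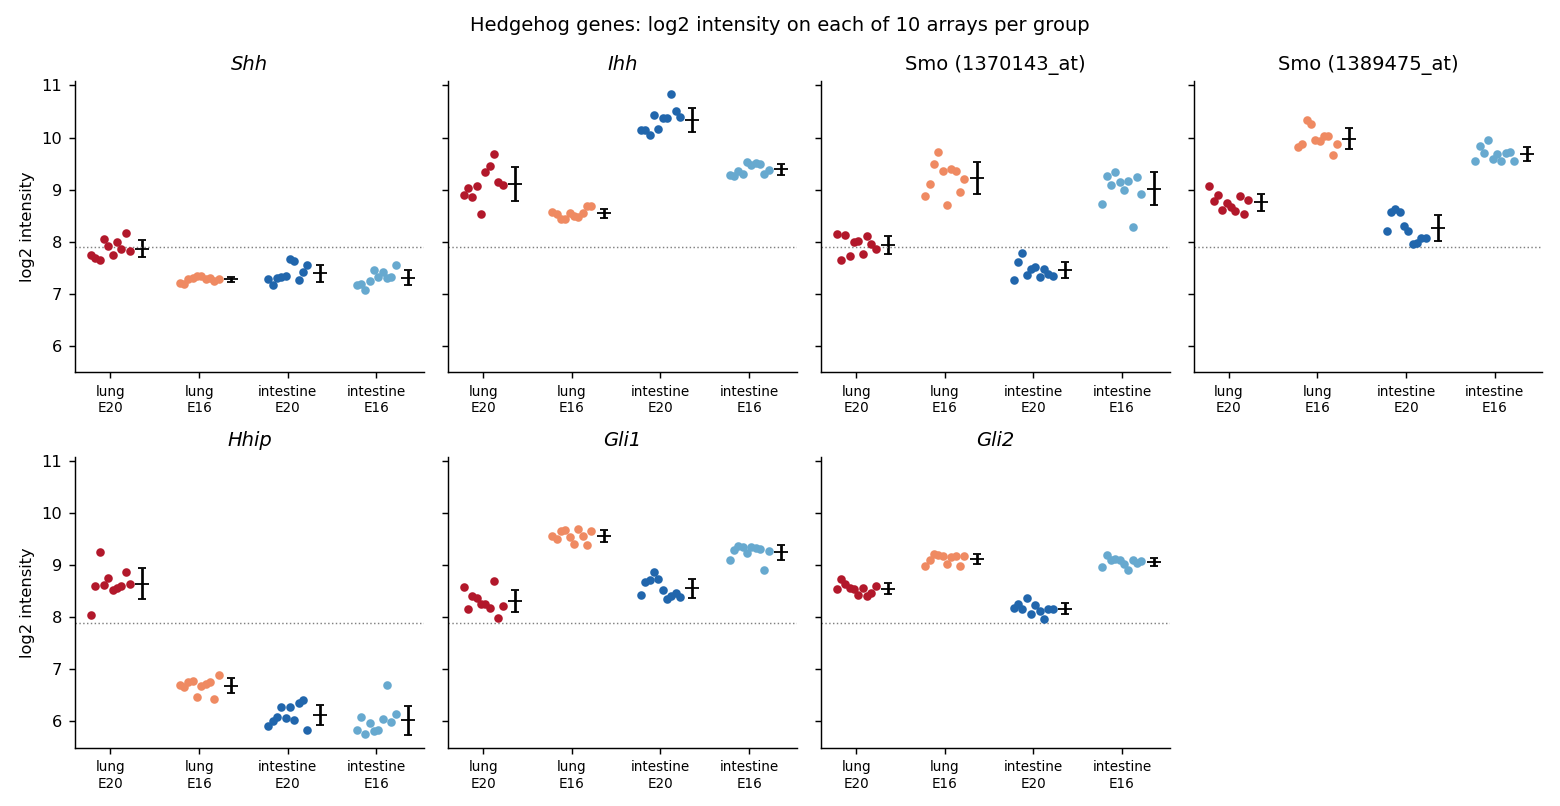
Log2 intensity (vertical axis) of each member probe set on each array, by group (lung E20, lung E16, intestine E20, intestine E16; 10 points each), with the mean and SD beside the points and a dotted line at the median of all log2 values, 7.89. Hhip stands apart in lung E20, at 8.05 to 9.26, and both Smo probe sets and both Gli genes are lower at E20 than at E16 in each organ.

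Shh (1387584_at), the ligand of the airway and early gut epithelium, was dim in all groups. In lung it had a lowest, median and highest value of 7.65, 7.83 and 8.17 over the 10 arrays at E20, against 7.19, 7.28 and 7.35 at E16. The lung groups did not overlap, yet the difference of 0.59 log2 units (SE 0.065, limma adjusted p = 2.18e-10) was under the 2-fold call. In intestine Shh had 7.16, 7.33 and 7.66 at E20, against 7.07, 7.31 and 7.56 at E16. These overlapped, with a difference of 0.089 (SE 0.065, limma adjusted p = 0.240). Shh passed the 7.89 median of the whole table on 4 of 40 arrays, all of them lung E20.

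Shh was thus ordered lung E20, intestine E20, intestine E16 and lung E16, with means of 7.86 ± 0.17, 7.39 ± 0.16, 7.30 ± 0.15 and 7.28 ± 0.05 (SD, n = 10 arrays each). The last pair differed by -0.026 (lung minus intestine, limma adjusted p = 0.737) and overlapped. The sign turned with quantile normalization (0.17, limma adjusted p = 0.0285). At E20 the difference of lung over intestine was 0.47 (SE 0.065, limma adjusted p = 3.24e-08), with the closest arrays just overlapping. The age difference was larger in lung than in intestine by 0.50 (SE 0.092, limma adjusted p = 1.15e-05), short of the 2-fold call.

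Ihh (1393271_at), the ligand that predominates in the differentiated gut epithelium of mice, was brightest in intestine E20. In intestine it had 10.05, 10.38 and 10.83 at E20 (lowest, median and highest), against 9.26, 9.37 and 9.53 at E16. No arrays overlapped, and the difference of 0.95 (SE 0.093, 1.94-fold, limma adjusted p = 5.63e-12) lay just under the call. With arrays centred on their medians it was 1.00 and called. In lung Ihh had 8.52, 9.08 and 9.68 at E20, against 8.43, 8.54 and 8.69 at E16. These groups overlapped, with a difference of 0.57 (SE 0.093, limma adjusted p = 1.26e-06), and lung E20 was the most scattered group.

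Ihh was the member that was lower in lung than in intestine at both ages. At E20 lung averaged 9.11 ± 0.33 and intestine 10.34 ± 0.23 (SD, n = 10 each), a called difference of -1.23 (SE 0.093, 2.35-fold lower, limma adjusted p = 3.24e-15), with no overlap. In a test against a 2-fold change its adjusted p was 0.0970, and the call was lost. At E16 lung averaged 8.54 ± 0.09 and intestine 9.39 ± 0.10 (SD, n = 10 each), again with no overlap and a difference of -0.84 (SE 0.093, limma adjusted p = 5.12e-10), under the call. Lung E20 and intestine E16, the middle neighbours in the order of levels, overlapped. The age difference was smaller in lung by 0.39 on the log2 scale (lung minus intestine -0.39, SE 0.13, limma adjusted p = 0.0113).

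Markers of the epithelium, the layer that makes the ligands, rose in both organs. Of 10 measured epithelium markers, among them Cdh1 and Epcam, 8 rose in lung and 10 in intestine, with median changes of 1.65 and 3.37. The mean of the list ran over 10.48 to 10.88 on lung E20 arrays, 8.76 to 9.29 on lung E16 arrays, 11.74 to 12.13 on intestine E20 arrays and 8.16 to 9.07 on intestine E16 arrays. The groups of an organ did not overlap, and the list's part in the ligand values was not tested.

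Smo, the membrane protein through which ligand signals pass, fell in both organs on both of its probe sets. On the brighter set (1389475_at), lung had 8.52, 8.76 and 9.06 at E20 (lowest, median and highest), against 9.66, 9.94 and 10.34 at E16. Intestine had 7.95, 8.21 and 8.63 at E20, against 9.54, 9.69 and 9.95 at E16. In each organ every E20 array lay under every E16 array. The fall was -1.22 in lung (SE 0.086, 2.34-fold lower, limma adjusted p = 5.80e-16) and -1.42 in intestine (SE 0.086, 2.68-fold lower, limma adjusted p = 3.14e-18).

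The other Smo set (1370143_at) gave -1.28 in lung (SE 0.11, limma adjusted p = 1.90e-13) and -1.56 in intestine (SE 0.11, limma adjusted p = 3.34e-16). Its arrays ran over 7.65 to 8.15 in lung E20, 8.71 to 9.72 in lung E16, 7.26 to 7.79 in intestine E20 and 8.28 to 9.34 in intestine E16, with no overlap between ages. In a test against a 2-fold change the lung fall was lost on both sets (adjusted p = 0.119 and 0.125), and the intestine fall was not. The difference between the organs' falls was 0.20 on the brighter set (SE 0.12, limma adjusted p = 0.165) and 0.28 on the other (SE 0.15, limma adjusted p = 0.120), so no difference between organs was shown. Smo was ordered lung E16, intestine E16, lung E20 and intestine E20, and neighbouring organs of 1 age overlapped.

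Hhip (1390606_at), the inhibitor that binds ligand at the cell surface, had the largest change of the set. In lung it had 8.05, 8.61 and 9.26 at E20 (lowest, median and highest), against 6.43, 6.71 and 6.90 at E16. The groups were more than 1 log2 unit apart, and the rise was 1.96 (SE 0.10, 3.89-fold, limma adjusted p = 6.08e-20). In intestine it had 5.83, 6.07 and 6.40 at E20, against 5.76, 5.98 and 6.69 at E16. These overlapped, with a difference of 0.10 (SE 0.10, limma adjusted p = 0.400). Of the 40 arrays, the 10 of lung E20 alone had Hhip above the 7.89 median of the whole table.

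The age change of Hhip differed between the organs by 1.86 (SE 0.15, limma adjusted p = 2.25e-14), the only member difference of this kind that passed the call. Over all probe sets, 7.64% were called with a change more positive in lung and 6.07% with one less positive. By the adjusted p alone, the change was more positive in lung for 3 member genes and less positive for 2, against 32.2% and 23.7% of all probe sets. At E20 lung averaged 8.65 ± 0.30 and intestine 6.12 ± 0.19 (SD, n = 10 each), a difference of 2.52 (SE 0.10, 5.75-fold, limma adjusted p = 4.60e-24). At E16 lung averaged 6.68 ± 0.14 and intestine 6.02 ± 0.27 (SD, n = 10 each), and the difference of 0.67 (SE 0.10, limma adjusted p = 8.46e-07) was under the call. A single intestine array, E16 replicate 8 at 6.69, made those groups overlap. It is among the arrays with more transcripts of other tissues. Without the 7 such arrays the lung rise was 2.07 and the difference between organs 1.93, and without the 4 arrays apart in cardiac genes they were 1.88 and 1.78.

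Some markers of lung cell types rose in lung, as Hhip did. Of 8 lung identity genes 6 rose in lung with a median change of 5.52, and of 6 measured endothelium markers 4 rose with a median of 1.20. The endothelium mean ran over 10.93 to 11.51 on lung E20 arrays, against 9.80 to 10.26 on lung E16 arrays. Of 12 mesenchyme markers 2 rose in lung and none fell, and the mean ran over 10.34 to 10.65 at E20, against 9.99 to 10.53 at E16, with overlap. Their part in the Hhip value was not tested.

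Gli1 (1378720_at), a transcription factor that is also a readout of the pathway in mice, fell in lung. There it had 7.98, 8.26 and 8.70 at E20 (lowest, median and highest), against 9.38, 9.57 and 9.70 at E16. The groups did not overlap, and the fall was -1.26 (SE 0.075, 2.39-fold lower, limma adjusted p = 3.66e-18). In intestine it had 8.35, 8.50 and 8.87 at E20, against 8.90, 9.30 and 9.37 at E16. The closest intestine arrays were almost level without overlapping, and the difference of -0.69 (SE 0.075, limma adjusted p = 9.45e-11) was under the call. The lung change was more negative by 0.56 on the log2 scale (lung minus intestine -0.56, SE 0.11, limma adjusted p = 1.75e-05).

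The order of Gli1 in the organs was opposite at the ages, by small amounts. At E20 lung averaged 8.31 ± 0.21 and intestine 8.56 ± 0.18 (SD, n = 10 each), a difference of -0.24 (SE 0.075, limma adjusted p = 0.00425) with overlapping arrays. At E16 lung averaged 9.57 ± 0.11 and intestine 9.25 ± 0.15 (SD, n = 10 each), a difference of 0.32 (SE 0.075, limma adjusted p = 4.62e-04) with no overlap. Neither reached the 2-fold call.

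Gli2 (1390233_at), the main activator of the family in mice, was lower at E20 in both organs by less than 2-fold. In lung it had 8.40, 8.56 and 8.73 at E20 (lowest, median and highest), against 8.99, 9.17 and 9.22 at E16. In intestine it had 7.97, 8.16 and 8.38 at E20, against 8.91, 9.09 and 9.20 at E16. The ages did not overlap in either organ. The difference was -0.57 in lung (SE 0.048, limma adjusted p = 1.09e-13) and -0.89 in intestine (SE 0.048, limma adjusted p = 5.27e-20). These differences were themselves unequal by 0.32 (SE 0.068, limma adjusted p = 7.43e-05). At E16 the organs overlapped, with 0.060 between them (lung minus intestine, limma adjusted p = 0.274). At E20 lung averaged 8.55 ± 0.10 and intestine 8.17 ± 0.11 (SD, n = 10 each), a difference of 0.38 (SE 0.048, limma adjusted p = 3.21e-09) with no overlap.

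Mitosis genes fell in lung, where Gli1 fell, and some mesenchyme markers fell in intestine. Of 9 mitosis genes 5 fell in lung (median -1.13) and none passed the call in intestine (median -0.22). Their mean ran over 10.01 to 10.72 on lung E20 arrays, 11.38 to 11.65 on lung E16 arrays, 10.62 to 10.98 on intestine E20 arrays and 11.01 to 11.22 on intestine E16 arrays. Of 12 mesenchyme markers 3 fell in intestine and none rose (median -0.52), with a mean of 9.91 to 10.49 at E20, against 10.54 to 10.91 at E16. Some markers of other cell types fell with age too, in both organs, as Smo did. Of 7 enteric neuron markers 4 fell in lung (median -1.12) and 5 in intestine (median -1.33), and none rose. Their mean ran over 6.61 to 7.15 on lung E20 arrays, 7.69 to 8.51 on lung E16 arrays, 8.69 to 9.79 on intestine E20 arrays and 10.10 to 10.66 on intestine E16 arrays. Of 6 erythroid markers 3 fell in lung (median -1.01) and 6 in intestine (median -3.69), and none rose. Their mean ran over 9.32 to 10.49, 11.63 to 12.24, 7.74 to 8.90 and 11.97 to 13.04 in the same groups. Of 10 cartilage markers 3 fell in lung and 4 in intestine. Of 6 mesothelium markers 1 rose and 2 fell in lung, and 1 rose and 3 fell in intestine. The part of these lists in the Gli and Smo values was not tested.

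**Figure D2:**
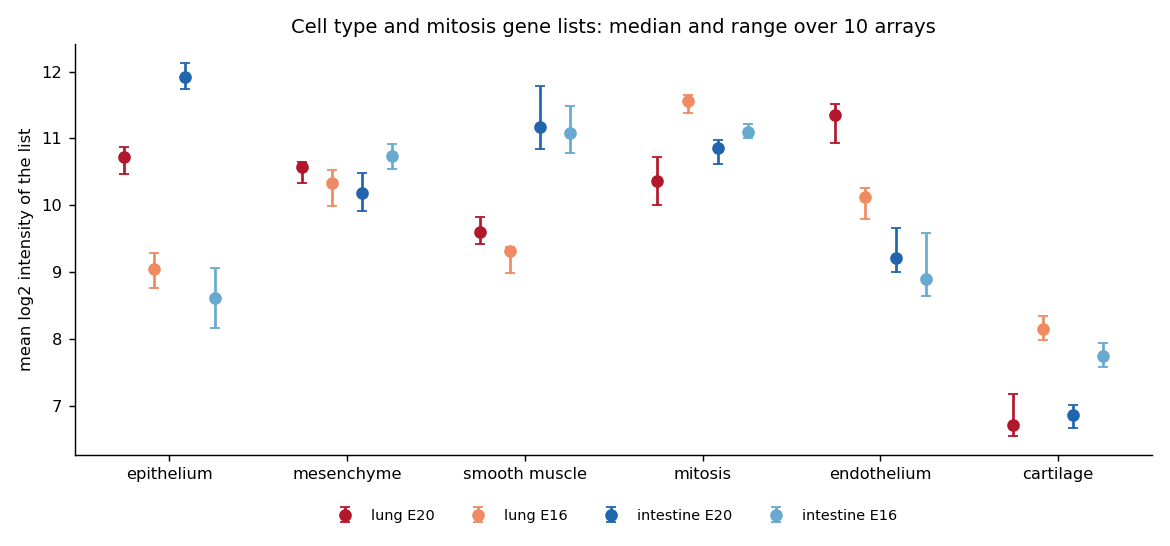
Mean log2 intensity of the gene lists for epithelium, mesenchyme, smooth muscle, mitosis, endothelium and cartilage (vertical axis), with the median over 10 arrays as a point and the lowest to highest array as a bar, for lung E20, lung E16, intestine E20 and intestine E16. The epithelium list is far higher at E20 in both organs, at medians of 10.72 against 9.04 in lung and 11.92 against 8.61 in intestine, while the mesenchyme list is slightly higher at E20 in lung (10.57 against 10.33) and lower in intestine (10.19 against 10.74).

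Between the organs, members were called at E20 and not at E16, when fewer of all probe sets were called too. At E20 Hhip was called higher and Ihh lower in lung, where 6.53% of all probe sets were called higher and 6.05% lower. At E16 no member was called, where 1.68% of all probe sets were called higher in lung and 2.48% lower. By the adjusted p alone, 3 of the 6 genes were higher and 1 lower at E16, and 4 were higher and 2 lower at E20. That rule called 27.2% of all probe sets higher and 40.1% lower at E20, and 18.5% and 40.4% at E16. With quantile normalization Shh was higher in lung at E16 by that rule (0.17, limma adjusted p = 0.0285), which it was not in the main fit. No arrays overlapped for 2 member probe sets higher in lung and 1 lower at E20, and for 1 higher and 1 lower at E16, against 12.4% and 13.7% of all probe sets at E20, and 6.21% and 8.79% at E16. Both comparisons share their arrays with the age comparisons.

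**Figure D3:**
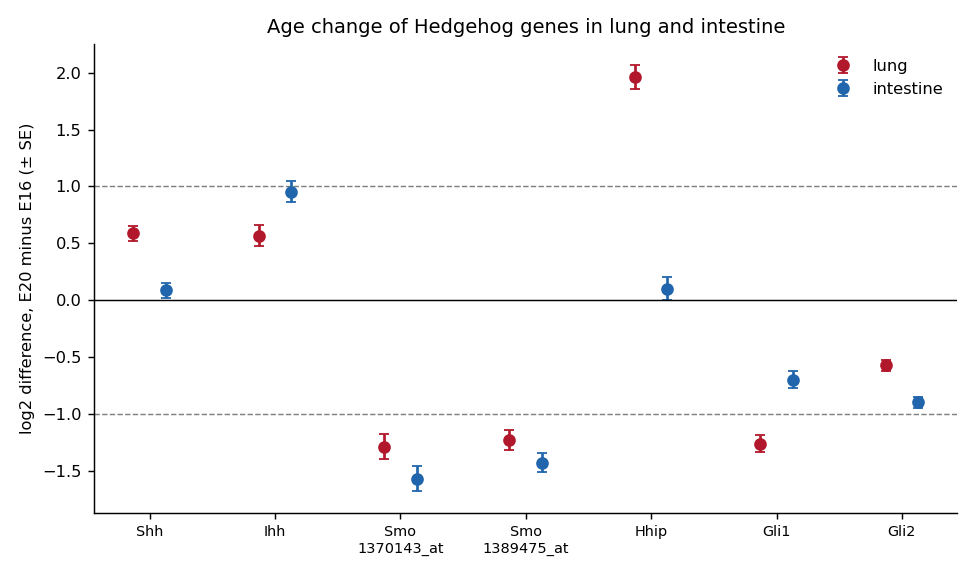
Log2 difference, E20 minus E16, of each member probe set in lung and in intestine (vertical axis, points with SE bars), with dashed lines at the 2-fold call of 1 and -1. Both Smo sets are under -1 in both organs, Gli1 is under -1 in lung alone (-1.26, with -0.69 in intestine), and Hhip is above 1 in lung alone (1.96, with 0.10 in intestine).

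Of the genes that make and release ligand, 4 of 7 listed were measured and none passed the call in either organ. For this and the lists below, the shares of all probe sets called were 5.24% higher and 3.79% lower in lung. In intestine they were 6.25% and 5.55%. Dhh, the remaining ligand of the family, changed by -0.20 in lung (SE 0.086, limma adjusted p = 0.0425) and -0.056 in intestine (SE 0.086, limma adjusted p = 0.597). Disp1, which releases the lipid-bearing ligand from cells, gave -0.12 in each (SE 0.059, limma adjusted p = 0.0719 in lung and 0.0734 in intestine). The list's median was -0.14 in lung and -0.023 in intestine. Hhat, which attaches palmitate to the ligands, had no probe set named for it alone and was not analysed here.

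Among co-receptors and cell-surface regulators, 5 of 7 were measured. By their brightest sets, 1 of them, Boc, fell in intestine and none passed the call in lung. A dimmer set of Gpc3, named after its value was seen, was called in both organs. It gave -1.06 in lung (limma adjusted p = 2.57e-06, with overlapping arrays) and -1.62 in intestine (limma adjusted p = 1.76e-10). The brighter Gpc3 set gave -0.16 in lung and -0.60 in intestine. Boc, which binds ligand beside Ptch1, had 8.10, 8.68 and 9.35 in intestine at E20 (lowest, median and highest), against 10.62, 10.80 and 11.02 at E16. No arrays overlapped, and the fall was -2.16 (SE 0.091, limma adjusted p = 1.48e-23). In lung Boc had 10.20, 10.41 and 10.60 at E20, against 10.40, 10.52 and 10.69 at E16, a difference of -0.12 (SE 0.091, limma adjusted p = 0.260). The organs differed in their change by 2.04 (SE 0.13, limma adjusted p = 2.59e-17).

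The co-receptors Cdon and Gas1 changed less than Boc in intestine. Cdon, the relative of Boc, gave -0.032 in lung (SE 0.086, limma adjusted p = 0.770) and -0.52 in intestine (SE 0.086, limma adjusted p = 1.15e-06). Gas1, a membrane-anchored ligand-binding protein, gave 0.18 in lung and -0.31 in intestine (SE 0.067 each, limma adjusted p = 0.0202 and 7.96e-05). The median over the 5 genes was -0.032 in lung and -0.52 in intestine.

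Of 22 measured genes that carry the signal inside the cell, of 25 listed, 1 rose and 3 fell in intestine by their brightest sets. None passed the call in lung by these sets. The median change over the 22 was 0.000 in lung and -0.35 in intestine. Dimmer sets of Gpr161 and Btrc, named after their values were seen, did pass. The Gpr161 set gave -1.17 in lung (limma adjusted p = 1.76e-14) and -1.72 in intestine (limma adjusted p = 6.68e-20), against -0.22 and -0.48 on the brighter set. The Btrc set gave -1.34 in intestine, against -0.78 on the brightest and -0.47 on the last. Kif7, a kinesin of the primary cilium that acts on Gli proteins, gave -0.60 in lung (SE 0.054, limma adjusted p = 7.34e-13) and fell by 1.05 on the log2 scale in intestine (SE 0.054, limma adjusted p = 1.18e-20). Grk2, a kinase that phosphorylates Smo, gave 0.31 in lung and fell by 1.02 in intestine (SE 0.12, limma adjusted p = 1.18e-09), with the organs differing by 1.33 (SE 0.17, limma adjusted p = 1.16e-08). The Kif7 and Grk2 calls in intestine lay close to the threshold and were lost under some settings, Kif7 at -0.96 with 32 added to each value and Grk2 at -0.97 with arrays centred. Tested against a 2-fold change, the organs' difference in Grk2 was not called either (adjusted p = 0.345).

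Rab23, a small GTPase that opposes the pathway in mice, gave 0.12 in lung and fell by 1.43 in intestine on its brighter probe set (SE 0.20, limma adjusted p = 5.95e-08), with overlapping arrays. The difference between organs was 1.54 (SE 0.29, limma adjusted p = 1.24e-05). Its other probe set gave -0.55 in intestine and was not called. Averaged over both sets, the fall was -0.99 and the organs' difference 0.99, and neither was called. Tested against a 2-fold change, they had adjusted p = 0.241 and 0.352. Numb, an adaptor that in mice promotes Gli1 degradation, gave 0.75 in lung and rose by 1.18 in intestine (SE 0.057, limma adjusted p = 1.82e-21). Its other probe set gave 0.48 in lung and 0.57 in intestine, and averaged over both sets the intestine change was 0.88 and not called. Sufu, the cytoplasmic inhibitor of Gli proteins, gave -0.18 in lung and -0.21 in intestine (SE 0.051 each, limma adjusted p = 0.00273 and 4.80e-04), under the call.

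Of 13 measured genes known as pathway targets in mesenchyme or in the cell cycle, of 17 listed, 1 rose and 1 fell in lung and 2 fell in intestine. Of all probe sets, 5.24% were called higher and 3.79% lower in lung, and 5.55% lower in intestine. The counts were not tested against these shares. Sfrp1, a secreted Wnt antagonist, fell by 1.81 in lung (SE 0.11, limma adjusted p = 7.71e-18) and by 1.53 in intestine (SE 0.11, limma adjusted p = 8.81e-16). Another Sfrp1 set fell by 2.41 in lung and 1.65 in intestine, and the last gave 0.047 in lung and 0.30 in intestine. Averaged over its sets, the intestine fall was -0.96 and not called. Bmp4, a mesenchymal growth factor, had 10.50, 11.09 and 11.48 in lung at E20, against 9.57, 9.83 and 9.92 at E16, without overlap. It rose by 1.23 in lung (SE 0.089, limma adjusted p = 1.39e-15) and gave -0.28 in intestine (SE 0.089, limma adjusted p = 0.00664), and the organs differed by 1.51 (SE 0.13, limma adjusted p = 1.39e-13). In a test against a 2-fold change the lung rise of Bmp4 was lost (adjusted p = 0.117).

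Foxf1, a transcription factor of lung and gut mesenchyme, gave 0.0041 in lung (SE 0.081, limma adjusted p = 0.970) and -0.92 in intestine (SE 0.081, limma adjusted p = 2.88e-13). The organs differed by 0.93 (SE 0.11, limma adjusted p = 3.82e-09), under the call, whereas the second Foxf1 set gave 1.32 and was called. Myocd, a coactivator of smooth muscle genes, gave -0.79 in lung and fell by 1.22 in intestine (SE 0.13, limma adjusted p = 1.33e-10). Tested against a 2-fold change, its adjusted p was 0.600, and the call ended. Of 10 smooth muscle markers, Myocd among them, 2 rose in lung and 1 fell in intestine. Ccnd1, the cyclin of the G1 phase, gave -0.73 in lung and -0.53 in intestine (SE 0.080 each, limma adjusted p = 1.83e-10 and 2.68e-07). Its other probe sets had the larger difference in intestine, at -0.53 in lung and -0.89 in intestine, and at -0.46 in lung and -0.79 in intestine. The list's median was -0.24 in lung and -0.45 in intestine. Foxf2 and Foxl1 had no probe set named for them alone and were not analysed here.

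Of 9 measured regulators of ligand genes in endoderm, of 10 listed, 1 rose in lung and 3 rose in intestine, and none fell. Klf5, a zinc-finger factor of epithelia, rose by 2.89 in lung (SE 0.084, limma adjusted p = 1.14e-28) and 3.05 in intestine (SE 0.084, limma adjusted p = 3.91e-30). The intestinal factors Cdx2 and Hnf4a gave -0.042 and 0.12 in lung, and in intestine rose by 4.31 (SE 0.12, limma adjusted p = 2.68e-30) and 4.17 (SE 0.14, limma adjusted p = 1.08e-26). The other Hnf4a sets gave 1.18 and 0.48 in intestine, and the average over its sets rose by 1.94. Foxa2, Fgf10 and Nkx2-1, named after their values were seen, did not pass the call in lung, at 0.83, 0.087 and 0.96.

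**Figure D4:**
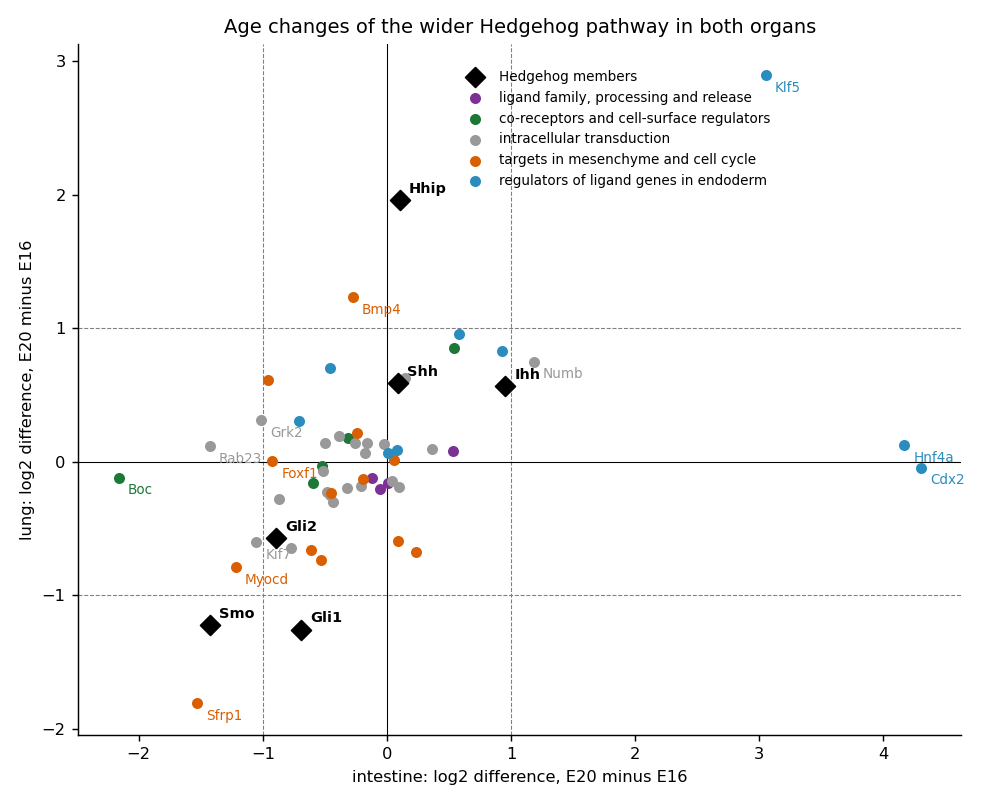
Log2 difference E20 minus E16 in lung (vertical axis) against that in intestine (horizontal axis) for the 6 member genes (diamonds) and the other measured pathway genes (circles, coloured by list), with dashed lines at the 2-fold call. Hhip and Bmp4 lie above 1 in lung with intestine values of 0.10 and -0.28, Boc lies at -0.12 in lung and -2.16 in intestine, and Smo lies with Sfrp1 under -1 in both organs.

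The genes whose 4 group means ran closest to those of each member were found among 9774 genes with a mean above the median of all log2 values, after each profile was centred. Likeness was the root mean square difference over the 4 groups, in log2 units, and a description with no test. Closest to Shh were Anxa7 (0.013), Phf20l1 (0.016) and Ccdc28a (0.025), and closest to Ihh were Metrnl (0.053), Ncoa7 (0.063) and Tm7sf2 (0.093). Smo ran closest to Csrnp2 (0.046), Ska2 (0.062) and Aldh1a2 (0.093). Hhip had looser neighbours in Slc38a5 (0.083), Kank3 (0.11) and RatNP-3b (0.14). The closest to Gli1 were Atad2 (0.018), Chaf1a (0.025) and Nup37 (0.034), and to Gli2 Dmac1 (0.035), Smarce1 (0.036) and Gmpr2 (0.037).

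Within groups, ligand and target levels were not shown to vary together. Of 20 relations (5 pairs among Shh, Ihh, Gli1 and Hhip in 4 groups of 10 arrays), none passed a permutation test of 100000 resamples after Benjamini-Hochberg adjustment. Pearson's r ran over -0.47 to 0.69, and the smallest adjusted p was 0.546 for r and 0.151 for Spearman's rho. The highest was Gli1 with Hhip in lung E16 (r = 0.69, permutation p = 0.0273, rho = 0.81, permutation p = 0.00755, n = 10), which became 0.58 without the 2 arrays farthest from the median of Gli1. The other 19 relations had an unadjusted permutation p for r of at least 0.0578.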

How the data were processed

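Gene expression was measured on 40 Affymetrix arrays of rat embryo lung and intestine, 10 per group. The deposited values are linear intensities, with RMA named in the submitters' processing notes without a version. Whether both organs were normalized together, and any detection call, is not stated in the sources used here. Intensities ran from 6.65 to 39901, and the number of arrays limits the precision.

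Groups came from the titles. Of 31099 probe sets, 57 controls were left out. Of the other 31042, 20826 had 1 gene symbol in the platform annotation and 436 had several. They gave 14217 genes, each represented by its brightest probe set. Log2 was taken, and limma 3.58.1 in R 4.3.3 fitted a mean per group to all 40 arrays without covariates, with 5 two-sided contrasts, eBayes, and Benjamini-Hochberg adjustment over 31042 probe sets. The fit was tested on simulated data. The members and gene lists were chosen with earlier results of these data known. Named genes were the members, 14 pathway genes named whatever their value, up to 4 called genes per list and age comparison with the largest change, and the 3 nearest profiles of each member. Relations with Ptch1 could not be computed. The 12 alternatives changed scaling, filters, probe set choice, weights, test, block, covariate or arrays. The covariate and the set without 4 lung arrays were chosen after seeing the data. The closest arrays correlated at 0.994, so none was treated as a duplicate. Promoters were read from RefSeq (GRCr8) and matched by symbol.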

Additional observations from a re-analysis of the deposited data

Results flagged for a closer look

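Several values stood apart. In intestine E16, Hhip was 6.69 on replicate 8, with the next array at 6.15. In intestine E20, Bmp4 was 9.67 on replicate 1, with the next array at 9.90. In lung E20, Ccnd1 was 10.73 on replicate 6, with the next at 11.19. In intestine E16, Rab23 was 6.86 on replicate 6, with the next at 8.28. These 4 came from 100 checks of a group of 10, where chance gives about 1 in 20 checks. Intestine E16 replicates 6 and 8 and lung E20 replicate 6 are among the 7 arrays with more transcripts of other tissues.

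The age change differed between the organs, lung minus intestine, for Hhip (1.86, limma adjusted p = 2.25e-14), Boc (2.04), Bmp4 (1.51), Rab23 (1.54) and Grk2 (1.33), which were all more positive in lung. It was more negative in lung for the intestinal factors Cdx2 (-4.35) and Hnf4a (-4.05). Averaged over the probe sets of a gene, the difference was -1.79 for Hnf4a and 0.99, not called, for Rab23. Tested against a 2-fold change, the differences of Grk2 and Rab23 were not called (adjusted p = 0.345 and 0.352).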

How the results depend on the processing

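The 35 member differences were recomputed in 400 combinations with an alternative: 393 kept their direction and their side of the call, 3 lost the call, 1 gained it and 3 changed sign. Of 1055 for other named genes, 1012 kept both, 21 lost the call, 3 gained it and 19 changed sign. All 22 sign changes were in small differences not called under either setting. Some of them passed the adjusted p alone after the change, and the cause was not tested. For lung minus intestine at E16, Shh became 0.17 with quantile normalization (limma adjusted p = 0.0285), 0.12 with arrays centred and 0.0090 with array weights. Dhh became 0.14 and 0.079 with the first pair of these. Sufu became 0.16 with quantile normalization and 0.15 with arrays centred (limma adjusted p = 0.00402 and 0.00938). It became 0.011 with array weights, 0.021 and 0.0048 without the 7 or the 4 arrays, and 0.0081 with the Xist and Eif2s3y covariate. For lung change minus intestine change, Sufu became -0.087 with quantile normalization, -0.10 with arrays centred and -0.015 without the 7 arrays, Ccnd1 0.16 with probe sets averaged, and Disp1 0.0017 with 32 added. With age in lung, Foxf1 became -0.076 with arrays centred, -0.060 without the 4 arrays and -5.8e-05 with the covariate, and Rab23 -0.037 without the 7 arrays. With quantile normalization Dhh became 0.019 with age in intestine, and Cdon 0.058 for lung minus intestine at E20. With arrays centred on their median, 2 member genes were called in intestine, against 1, because Ihh was 1.00 there. With dim probe sets left out, Shh and Hhip were not tested, so 0 members were called for the difference between organs, against 1, and 1 between organs at E20, against 2. In a test against a 2-fold change, 1 was called between organs at E20, against 2 (Ihh -1.23, adjusted p = 0.0970), and 2 in lung, against 3. With the replicate block within an age, 3 member genes were called in lung, 1 in intestine and 1 for the organs' difference in change. Between organs, 2 were called at E20 and 0 at E16. These counts were as without the block, whose correlation was 0.087. Deviations of same-numbered lung and intestine arrays correlated above 0.1 in 4 of 10 pairs at E20 (range -0.22 to 0.40) and in 7 of 10 at E16 (all 10 positive, up to 0.68). A lung array correlated best with its own number in 2 of 10 cases at E20 and 7 of 10 at E16, a hint from the data of shared origin at E16 that the labels do not give. Same-numbered arrays agreed in which of the sex-linked genes Xist and Eif2s3y was brighter in 4 of 10 pairs at E20 and 8 of 10 at E16. At E16, replicate 1 disagreed in this although its own number correlated best. The numbers of probe sets called in a test against a 2-fold change were 1590 in lung, against 2802, 2341 for the difference, against 4255, and 681 at E16, against 1292. With arrays centred, 1439 probe sets were called higher and 1441 lower in lung, against 1626 and 1176, and 1939 and 2342 for the difference, against 2371 and 1884. At E16 the split was 685 and 594 centred, and 648 and 640 with quantile normalization, against 523 and 769. No array carries a detection limit, so how far the dim values of Shh and Hhip stand above background is unknown.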

Other observations

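Other genes of the listed pathway whose age change differed between the organs by at least 2-fold, named after their values were seen, were Wnt5a, a secreted Wnt ligand of mesenchyme, and the endoderm genes Fgfr2 and Sox2. Wnt5a gave 0.62 in lung and -0.96 in intestine, a difference of 1.58 (SE 0.15, limma adjusted p = 5.35e-12). Fgfr2, a receptor for Fgf10, gave 0.71 in lung and -0.46 in intestine, a difference of 1.17 (SE 0.12, limma adjusted p = 5.58e-11). Sox2, a transcription factor of the foregut and airway epithelium, gave 0.31 in lung and -0.71 in intestine, a difference of 1.01 (SE 0.13, limma adjusted p = 8.51e-09). None of these age changes passed the 2-fold call in a single organ.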
